A study of Mus musculus with 13 samples.

Results

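Cytochrome P450 enzymes are described here as messenger RNA levels in gluteal white adipose tissue (WAT) of mice that lived at 22°C or 29°C. The members are the genes whose symbol reads Cyp, a number, 1 or more letters and a number. Pseudogenes, *Cyp51* and genes with a mean raw count under 10 over the 13 libraries were left out. This rule takes 29 of the 34419 genes in the count table. They fall into families 1 (2 genes), 2 (12 genes) and 4 (8 genes) and into families 7, 11, 20, 26, 27, 39 and 46 with 1 gene each. Of 68 genes with such a symbol, 39 had too few counts, and 25 of those had a mean count under 1. The last genes inside the minimum were *Cyp2c23* with a mean count of 10.6 and *Cyp4f14* with 11.5. The first genes outside were *Cyp2b10* with 9.08 and *Cyp3a13* with 9.0.

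All mice were male C57BL/6J, were bred in thermal chambers and stayed at their temperature from birth until 13 weeks of age. In both groups the posterior hair was removed after weaning, and the mice were single housed with little bedding and no nesting material. No group with intact hair is analysed here, so values describe housing temperature in mice that all lacked this hair. Total RNA of gluteal WAT from 7 mice at 22°C and 6 mice at 29°C was sequenced as 1 library per mouse.

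P450 enzymes hold a heme iron and put an oxygen atom from molecular oxygen into a substrate. Most sit in the endoplasmic reticulum and take their electrons from NADPH through P450 oxidoreductase, whereas a few work inside mitochondria with ferredoxin. Families 1 and 2 mainly oxidize drugs, toxins and polyunsaturated fatty acids, family 4 hydroxylates fatty acids near their methyl end, and the higher family numbers act on sterols, steroids and retinoids.

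Library totals ran from 22356637 to 25245785 counts, and levels are given as CPM, the count relative to the library size after scaling by edgeR's trimmed mean of M values (TMM). For a gene with 0 counts, counting error alone leaves room for 3 counts. On library totals without the TMM scaling, that is 0.119 to 0.134 CPM. The 5 libraries with lower totals (22°C replicates 1 to 5) are all from 22°C, so the effect of this split can be examined only through the other 2 libraries from 22°C. The 10 adipocyte marker genes were present in every mouse, with a summed level between 15780 and 24608 CPM at 22°C and between 19672 and 24240 CPM at 29°C. Skeletal muscle genes were high in 22°C replicates 1 and 7, at 61477 and 84612 CPM summed over 15 genes, against at most 12855 CPM in the other 11 libraries. The 7 liver markers in the table summed to at most 82.3 CPM in any mouse. In a bulk tissue, fewer cells of a type and less RNA per cell cannot be told apart.

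Of the 29 P450 genes, all of which passed the filter on low counts, *Cyp4f17* alone was called changed. It was higher at 22°C. The threshold was P-adj below 0.1 in edgeR's quasi-likelihood test, with Benjamini-Hochberg adjustment over all 17779 genes tested. Among all genes tested, 345 (1.94%) were called, of which 130 (0.731%) were higher and 215 (1.21%) lower at 22°C. The single gene is 3.45% of the members. At an unadjusted p below 0.05, 7 members passed, where 18.5% of all tested genes did. Of these 7, 3 were higher at 22°C (10.3% of all tested genes) and 4 lower (8.2%). DESeq2 called 5 of the 26 members to which it gave an adjusted p, where it called 10.2% of all such genes. The fitted log2 fold change of 22°C over 29°C was above 0 for 19 members and below 0 for 10, with a median of 0.11. Over all genes tested 9167 were above 0 and 8612 below, with a median of 0.01. The plots of levels and of fold changes show all members.

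**Figure D1:**
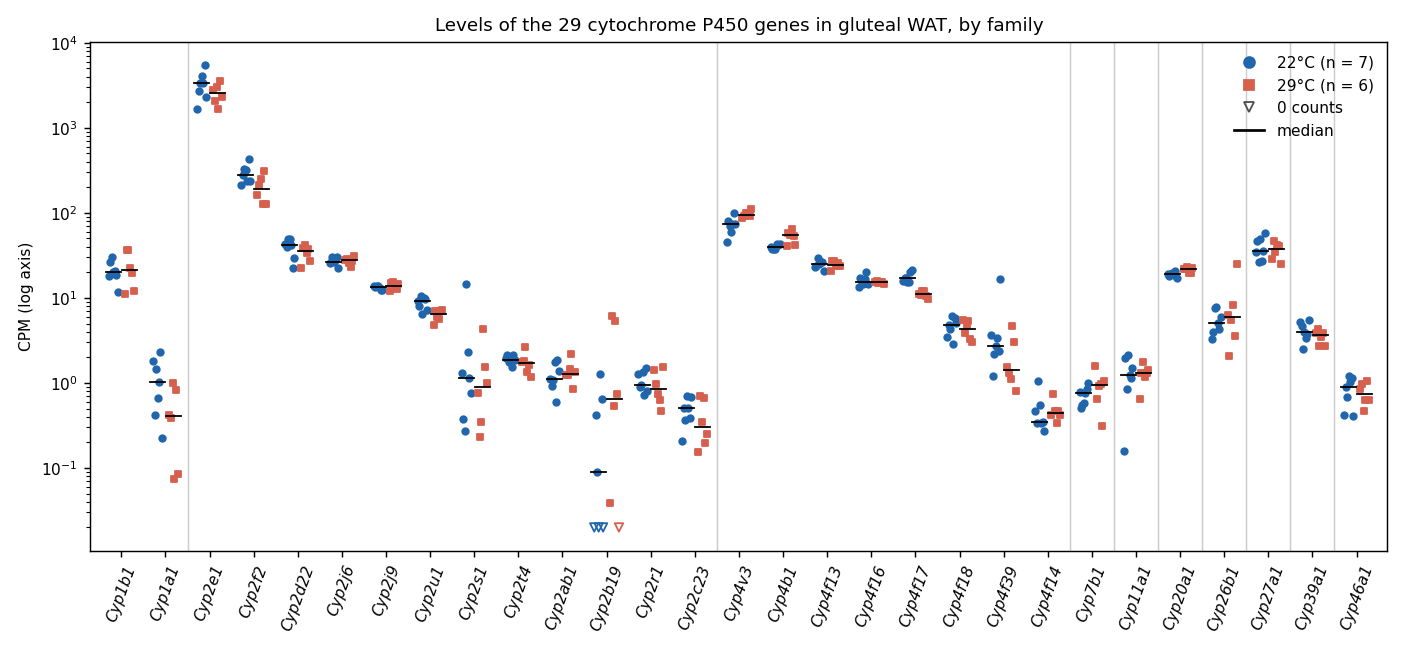
Level of each of the 29 P450 genes in CPM on a log axis, ordered by family (grey lines) and then by level, with a point for each mouse at 22°C (circles, n = 7) and 29°C (squares, n = 6) and a black bar at the group median. *Cyp2e1* lies above all others, and triangles at the foot mark the 4 libraries with 0 counts of *Cyp2b19*.

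**Figure D2:**
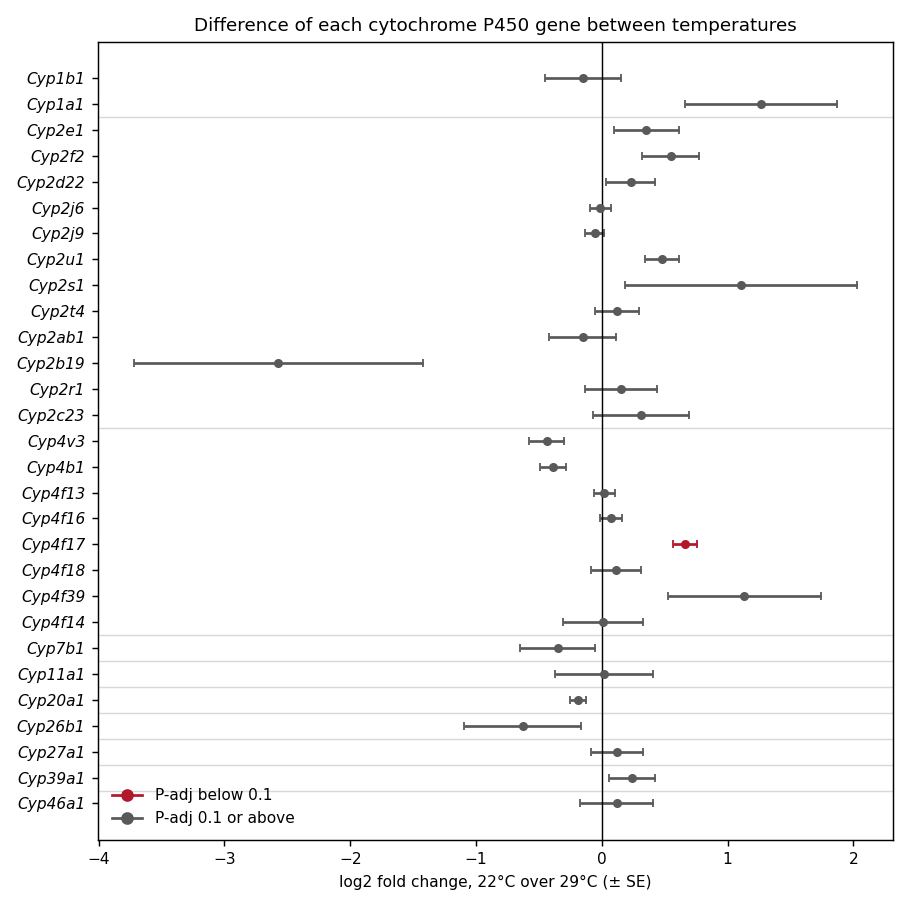
Log2 fold change of 22°C over 29°C for each P450 gene with its standard error (SE), by family. *Cyp4f17*, at 0.66, is the 1 gene with P-adj below 0.1, and the widest intervals belong to the genes that 1 or 2 mice lead, such as *Cyp2b19* and *Cyp2s1*.

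Family 4 holds the fatty acid omega-hydroxylases, and 6 of its 8 members belong to the 4f subfamily, whose enzymes hydroxylate long-chain fatty acids, leukotrienes and related lipids. The stretches below are shown because counts of close relatives depend on how far their sequences differ. They are 60 bases of coding sequence from the GENCODE M21 transcripts, spanning the codon of the cysteine that binds the heme iron. In *Cyp4f17* the capitals mark that cysteine codon, and in the others they mark bases unlike *Cyp4f17*.
Cyp4f17: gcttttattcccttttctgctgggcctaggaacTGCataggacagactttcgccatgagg
Cyp4f16: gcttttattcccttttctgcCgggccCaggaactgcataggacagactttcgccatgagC
Cyp4f13: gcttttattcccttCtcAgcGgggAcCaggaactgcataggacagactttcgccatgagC
Cyp4f39: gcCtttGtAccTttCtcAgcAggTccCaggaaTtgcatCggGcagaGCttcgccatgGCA
Within these 60 bases, *Cyp4f16* differs from *Cyp4f17* at 3 positions, *Cyp4f18* at 4, *Cyp4f13* at 6, *Cyp4f14* at 7 and *Cyp4f39* at 17. Over the whole coding sequence the identity to *Cyp4f17* was 84.3% for *Cyp4f16*, 84.0% for *Cyp4f13*, 77.8% for *Cyp4f14*, 76.2% for *Cyp4f18* and 67.3% for *Cyp4f39*. Of all stretches of 50 bases in the *Cyp4f17* transcripts, 3.13% also occur in another gene, most of them in *Cyp4f16*. For *Cyp4f16* itself the share was 26.0%, most of it in *Cyp4f37*, which had a mean count of 1.54, so counts of *Cyp4f16* are less certain. *Cyp4f39* and *Cyp4f16* lie on the same strand of chromosome 17 in the RefSeq promoter entries of GRCm38.p6, which hold none for *Cyp4f17*.

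*Cyp4f17* (ENSMUSG00000091586.3) had a lowest, median and highest level of 15.3, 16.9 and 21.0 CPM at 22°C and of 9.72, 11.0 and 12.0 CPM at 29°C. The groups did not overlap, and replicates 6 and 7 were the highest at 22°C. Among all tested genes, 1.24% had groups that did not overlap. The mean was 17.5 ± 2.32 CPM (SD, n = 7) against 11.0 ± 0.898 CPM (SD, n = 6), for a log2 fold change of 0.66 (SE 0.09, edgeR P-adj = 0.0106). That is a ratio of 1.58. Within the 8 libraries with higher totals, 2 from 22°C and 6 from 29°C, it was 0.90 (edgeR P-adj = 0.0815), and with the split of totals as a covariate it was also 0.90 (edgeR P-adj = 0.00892). It was 0.62 both with the muscle score as a covariate (edgeR P-adj = 0.0530) and without the 2 libraries of highest muscle score (edgeR P-adj = 0.0271).

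Of the brown and beige fat markers, 7 were tested, and 6 of these were higher and 1 lower at 22°C. The summed level of 8 such genes was between 59.9 and 281 CPM at 22°C and between 18.4 and 49.9 CPM at 29°C, without overlap. The defining gene, *Ucp1*, was at or near 0 everywhere, with at most 0.368 CPM in any mouse. *Cidea*, *Cox8b* and *Otop1* were called higher at 22°C, where 0.731% of all genes tested were. *Elovl3* had a mean of 0.775 CPM at 22°C against 0.789 CPM at 29°C, with a log2 fold change of -0.03 (SE 0.92). The 2 highest sums, 281 and 246 CPM, were in 22°C replicates 1 and 7, where *Cyp4f17* was at 15.9 and 21.0 CPM. Some of these markers, such as *Cox8b* and *Cpt1b*, are also made in skeletal muscle. The part of brown or beige fat in the level of *Cyp4f17* was not tested.

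No other gene of the subfamily was called changed. *Cyp4f16* had a lowest, median and highest level of 13.4, 15.5 and 20.4 CPM at 22°C and of 14.6, 15.2 and 15.9 CPM at 29°C, with a log2 fold change of 0.07 (SE 0.09, edgeR P-adj = 0.706). The mice at 29°C fell inside the range of those at 22°C. *Cyp4f13* ranged from 21.0 through a median of 25.1 to 29.2 CPM at 22°C and from 21.0 through 24.6 to 27.3 CPM at 29°C, and its log2 fold change was 0.02 (SE 0.08, edgeR P-adj = 0.931). The ranges of *Cyp4f13* overlapped almost in full. *Cyp4f18*, known in neutrophils for degrading leukotriene B4, had a mean of 4.48 CPM and a log2 fold change of 0.11 (SE 0.20). *Cyp4f14*, a leukotriene B4 hydroxylase of the liver, had a mean of 0.477 CPM and a log2 fold change of 0.01 (SE 0.32).

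*Cyp4f39*, the mouse counterpart of the enzyme that hydroxylates ultra-long-chain fatty acids for the skin barrier, was led by 1 mouse. It ranged from 1.22 through a median of 2.72 to 16.7 CPM at 22°C and from 0.799 through 1.42 to 4.71 CPM at 29°C. The highest value was in 22°C replicate 7, which held the most muscle RNA and the lowest sum of stratified epithelium markers (12.6 CPM). The highest value at 29°C was in replicate 4, which had the highest such sum (377 CPM). The part of epithelial cells in the level of *Cyp4f39* was not tested. The log2 fold change of 1.13 (SE 0.61, edgeR P-adj = 0.342) was 0.30 without 22°C replicate 7. With the muscle score as a covariate it was 0.24, and with the split of totals 2.18.

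To set *Cyp4f17* against its relatives within each mouse, its count was divided by the summed counts of the other 5 genes of the subfamily. This ratio was chosen after the values had been seen. On the log2 scale it was between -1.71 and -1.44 at 22°C and between -2.19 and -1.97 at 29°C, and the groups did not overlap. The means differed by 0.54, from -1.55 ± 0.111 (SD, n = 7) to -2.08 ± 0.0940 (SD, n = 6). Against *Cyp4f16* alone the log2 ratio was between -0.14 and 0.53 at 22°C and between -0.59 and -0.33 at 29°C, again without overlap. Both ratios are given as a description, with no test.

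**Figure D3:**
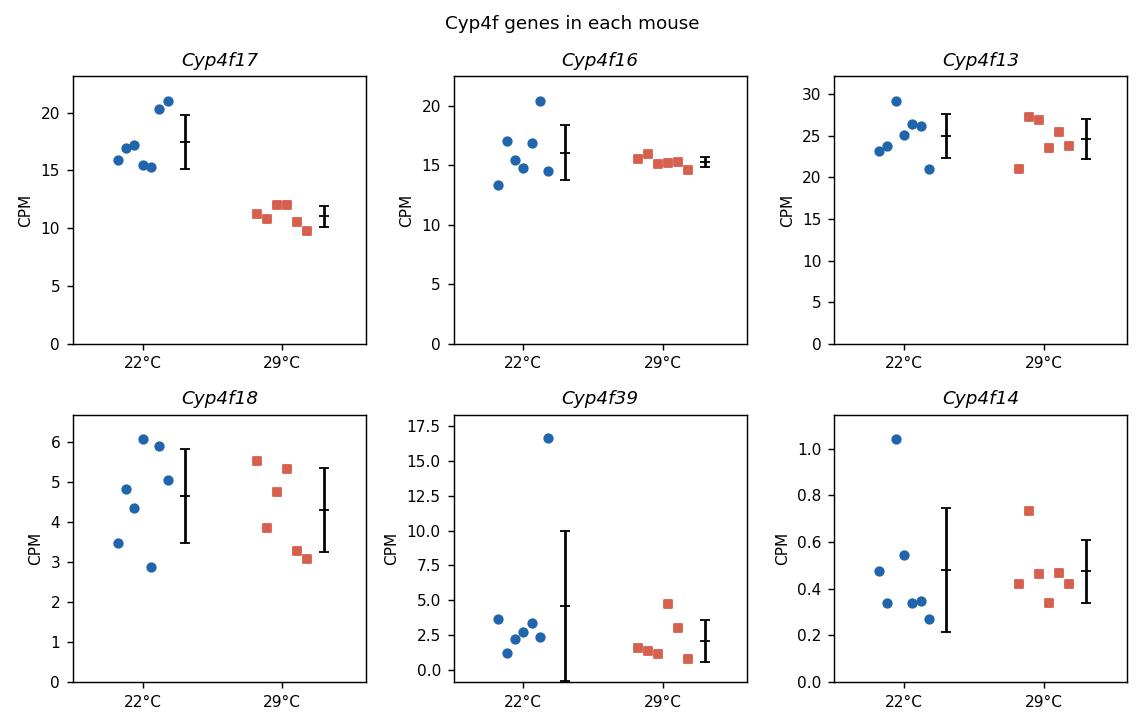
Level of the 6 Cyp4f genes in CPM in each mouse at 22°C (circles, n = 7) and 29°C (squares, n = 6), with the mean and SD beside the points and an axis of its own for each gene. *Cyp4f17* is the 1 panel in which the groups do not overlap, and the point at 16.7 CPM of *Cyp4f39* is 22°C replicate 7.

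The other 2 genes of family 4 had lower levels at 22°C and missed the threshold. *Cyp4b1*, which oxidizes fatty acids and some plant and fungal toxins, ranged from 37.2 through a median of 40.0 to 43.1 CPM at 22°C and from 40.8 through 54.2 to 65.4 CPM at 29°C. Levels at 22°C lay close together (SD 2.44, n = 7), whereas those at 29°C were wider (SD 9.59, n = 6), and 29°C replicates 1 and 6 fell inside the range at 22°C. The difference on the log2 scale was -0.39 (SE 0.10, edgeR P-adj = 0.106). It passed the threshold without 22°C replicate 6, 29°C replicate 1 or 29°C replicate 6, with edgeR P-adj = 0.0983, 0.0874 and 0.0931. Of its 50-base stretches, 9.84% occur in other genes, most often in the pseudogene *Cyp4b1-ps2*.

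*Cyp4v3*, the mouse counterpart of a fatty acid hydroxylase whose loss in humans causes a crystalline retinal dystrophy, ranged from 45.3 through a median of 73.6 to 99.5 CPM at 22°C. At 29°C it ranged from 87.7 through 95.4 to 113 CPM. In 6 of 7 mice at 22°C it was below every mouse at 29°C, the exception being replicate 6. The log2 fold change was -0.44 (SE 0.14, edgeR P-adj = 0.153), and without 22°C replicate 6 it was -0.53 (edgeR P-adj = 0.0627). Within the libraries with higher totals it was -0.17, and with the muscle score as a covariate -0.29, so the first of these moved the value by over 1.5 times. All 264 of its shared 50-base stretches, 7.02% of the total, also lie in *Gm45753*, and reads from both cannot be told apart there.

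Family 2 had the largest range of levels and no member past the threshold. *Cyp2e1* (ENSMUSG00000025479.10), which oxidizes ethanol, acetone and other small molecules and is induced in fasting and diabetes, was by far the most abundant P450 gene. It took between 75.2% and 87.1% of all counts of the 29 genes in a mouse. Its level per length was 1368 CPM per kb of exon, compared with 123 CPM per kb for *Cyp2f2*, the next gene. The 29 genes together took between 0.185% and 0.658% of a library at 22°C and between 0.233% and 0.434% at 29°C. Without *Cyp2e1* the shares were 0.0456% to 0.0847% at 22°C and 0.0486% to 0.0708% at 29°C.

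*Cyp2e1* ranged from 1644 through a median of 3333 to 5507 CPM at 22°C and from 1652 through 2538 to 3556 CPM at 29°C. The highest value was in 22°C replicate 6 and the lowest in 22°C replicate 1, so mice of the same group spanned the whole range. Its log2 fold change was 0.35 (SE 0.26, edgeR P-adj = 0.493). Without 22°C replicate 6 it was 0.18, and with the split of totals as a covariate 0.61. The liver marker sum was 37.0 CPM in 22°C replicate 6, the highest for *Cyp2e1*, and 60.8 CPM in 22°C replicate 1, the lowest. *Alb* alone gave 35.9 and 58.6 CPM of these sums. The part of liver RNA in the level of *Cyp2e1* was not tested.

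*Cyp2f2*, best known for activating naphthalene in the club cells of the lung, took between 4.55% and 9.68% of the counts of the 29 genes. It ranged from 211 through a median of 278 to 427 CPM at 22°C and from 128 through 189 to 308 CPM at 29°C. The highest mouse at 22°C was again replicate 6 and the highest at 29°C was replicate 5, which were also the highest for *Cyp2e1* in their groups. In 3 mice at 29°C the level was below every mouse at 22°C. The difference on the log2 scale was 0.55 (SE 0.23, edgeR P-adj = 0.225).

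*Cyp2u1*, which hydroxylates long-chain fatty acids such as arachidonic acid, ranged from 6.49 through a median of 9.31 to 10.5 CPM at 22°C and from 4.83 through 6.46 to 7.19 CPM at 29°C. In 5 of 7 mice at 22°C it was above every mouse at 29°C, and replicates 4 and 7 fell inside the range at 29°C. The log2 fold change was 0.48 (SE 0.14, edgeR P-adj = 0.122), and leaving out each mouse in turn gave values between 0.41 and 0.54.

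**Figure D4:**
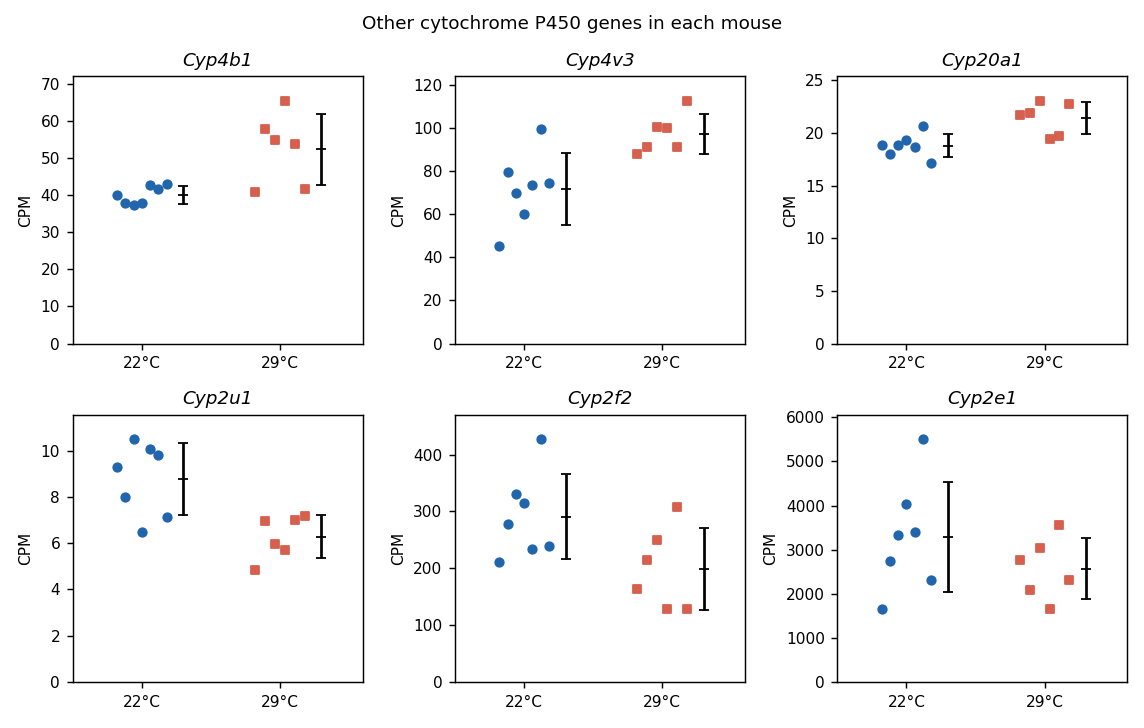
Level of 6 further P450 genes in CPM in each mouse at 22°C (circles, n = 7) and 29°C (squares, n = 6), with the mean and SD beside the points and an axis of its own for each gene. *Cyp4b1*, *Cyp4v3* and *Cyp20a1* lie mostly lower at 22°C, *Cyp2u1* and *Cyp2f2* mostly higher, and the *Cyp2e1* groups overlap, with 22°C replicate 6 at 5507 CPM.

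*Cyp2d22*, *Cyp2j6* and *Cyp2j9*, of drug metabolism and fatty acid epoxidation, did not pass the threshold. *Cyp2d22*, often taken as the mouse counterpart of the human drug enzyme CYP2D6, ranged from 22.3 through a median of 41.9 to 49.7 CPM at 22°C and from 22.3 through 35.8 to 41.5 CPM at 29°C, with a log2 fold change of 0.23 (SE 0.19, edgeR P-adj = 0.561). The 5 libraries from 22°C with lower totals were its 5 highest at that temperature, and in the libraries with higher totals its log2 fold change was -0.38. *Cyp2j6*, an epoxygenase of polyunsaturated fatty acids, ranged from 22.4 through 26.3 to 30.5 CPM at 22°C and from 22.9 through 27.7 to 31.2 CPM at 29°C, with a log2 fold change of -0.01 (SE 0.08, edgeR P-adj = 0.954). The groups of *Cyp2j6* overlapped almost in full. Its relative *Cyp2j9* had a mean of 13.5 CPM and a log2 fold change of -0.06 (SE 0.07).

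Of the scarcer genes of family 2, *Cyp2r1*, which adds the first hydroxyl group to vitamin D, had a mean of 1.02 CPM and a log2 fold change of 0.15 (SE 0.29). *Cyp2c23*, an arachidonic acid epoxygenase known from the kidney, had a mean of 0.437 CPM and a log2 fold change of 0.31 (SE 0.38). *Cyp2t4* had a mean of 1.81 CPM and *Cyp2ab1* 1.31 CPM, with log2 fold changes of 0.12 (SE 0.17) and -0.15 (SE 0.27). All 4 had P-adj of 0.708 or above in edgeR, and their groups overlapped.

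*Cyp2b19* and *Cyp2s1* were each high in 2 mice. *Cyp2b19*, an epoxygenase of differentiating keratinocytes, had 0 counts in 4 libraries. Its highest level at 22°C was 1.27 CPM and its median 0.0905 CPM, and at 29°C it ranged from 0 through a median of 0.641 to 6.09 CPM. Replicates 2 and 4 at 29°C, with 6.09 and 5.42 CPM, stood above all other mice. The fitted log2 fold change was -2.57 (SE 1.15, edgeR P-adj = 0.253), and with limma on the deposited log2 values it was -0.66. The sum of the 8 stratified epithelium markers was 31.5 CPM in 29°C replicate 2 and 377 CPM in replicate 4. At 22°C it was 12.6 to 113 CPM, and at 29°C the median was 31.7 CPM, so of these 2 mice only replicate 4 had a high sum. In 29°C replicate 2, *Trp63* gave 25.1 CPM of this sum, and its level was 9.50 to 29.4 CPM over all mice. In the 4 libraries with 0 counts of *Cyp2b19* the stratified epithelium sum was between 12.6 and 30.3 CPM. The 8 sebaceous gland markers summed to 67.6 CPM in 29°C replicate 2, the highest of all mice, and to 51.7 CPM in 29°C replicate 4. At 22°C their sum was 46.3 to 57.3 CPM.

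*Cyp2s1*, a P450 of epithelia of the airways, gut and skin, ranged from 0.272 through a median of 1.15 to 14.4 CPM at 22°C and from 0.231 through 0.888 to 4.26 CPM at 29°C. The highest mouse in each group was replicate 4. The sum of 8 luminal epithelium markers was 42.5 CPM in 22°C replicate 4 and 32.9 CPM in 29°C replicate 4, the highest of all mice. It was at most 14.8 CPM in the other 11. Different genes led the 2 sums. In 22°C replicate 4 these were *Krt19*, *Krt8* and *Krt18* (20.5, 8.41 and 7.16 CPM), with *Epcam* at 0.670 CPM. In 29°C replicate 4 they were *Cldn4*, *Epcam* and *Elf5* (15.2, 7.26 and 6.17 CPM), with *Krt8* at 0.411 CPM. The log2 fold change of *Cyp2s1* was 1.11 (SE 0.92, edgeR P-adj = 0.559), and without 22°C replicate 4 it was -0.41. The part of epithelial cells in the levels of *Cyp2s1* and *Cyp2b19* was not tested.

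**Figure D5:**
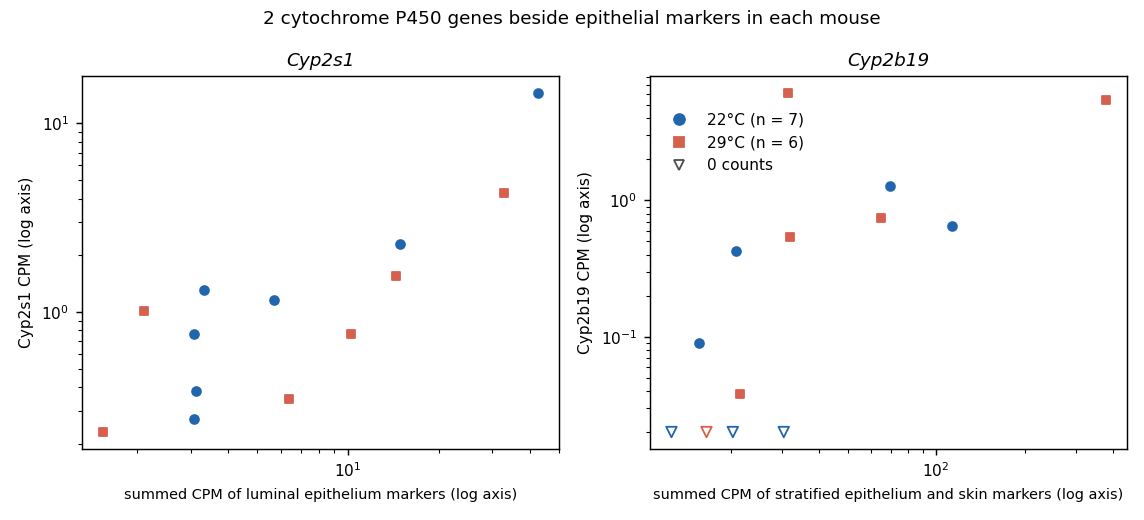
*Cyp2s1* against the summed CPM of 8 luminal epithelium markers (left) and *Cyp2b19* against the summed CPM of 8 stratified epithelium and skin markers (right), each point a mouse at 22°C (circles, n = 7) or 29°C (squares, n = 6), on log axes, with triangles for 0 counts. The 2 mice with the highest luminal sums (42.5 and 32.9 CPM) are the 2 highest for *Cyp2s1*, while 1 of the 2 mice highest for *Cyp2b19* has a stratified sum of 31.5 CPM.

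Family 1 holds the targets of the aryl hydrocarbon receptor, a sensor of dioxins and other aromatic compounds. *Cyp1b1*, which hydroxylates estrogens and aromatic compounds, ranged from 11.7 through a median of 20.1 to 30.5 CPM at 22°C and from 11.0 through 21.1 to 37.0 CPM at 29°C. The groups overlapped, and 29°C replicates 2 and 3 were the highest of all mice. Fitted on the log2 scale, the difference was -0.15 (SE 0.30, edgeR P-adj = 0.825). *Cyp1a1*, the gene most used as a readout of this receptor, had a mean of 1.13 ± 0.760 CPM (SD, n = 7) at 22°C against 0.465 ± 0.380 CPM (SD, n = 6) at 29°C, and its log2 fold change of 1.26 (SE 0.60, edgeR P-adj = 0.284) missed the threshold. With limma on the deposited log2 values its log2 fold change was 0.36, and on leaving out each mouse edgeR gave 0.97 to 1.64. In 4 of 7 mice at 22°C it was above every mouse at 29°C.

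Of the sterol enzymes, *Cyp27a1*, the mitochondrial sterol 27-hydroxylase, had the highest level per length, 17.6 CPM per kb of exon. It ranged from 26.3 through a median of 35.3 to 58.7 CPM at 22°C and from 25.3 through 38.0 to 47.3 CPM at 29°C, with a log2 fold change of 0.12 (SE 0.21, edgeR P-adj = 0.797). Its highest level was in 22°C replicate 7, and the groups overlapped. *Cyp39a1*, which hydroxylates 24-hydroxycholesterol, ranged from 2.49 through 3.93 to 5.51 CPM at 22°C and from 2.73 through 3.66 to 4.36 CPM at 29°C, with a log2 fold change of 0.24 (SE 0.19, edgeR P-adj = 0.524). Its 2 highest mice, 22°C replicates 1 and 7, are those with the most muscle RNA, and with the muscle score as a covariate its log2 fold change was -0.02.

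*Cyp7b1*, the oxysterol 7-alpha-hydroxylase, ranged from 0.506 through a median of 0.761 to 0.993 CPM at 22°C and from 0.312 through 0.950 to 1.57 CPM at 29°C, with a log2 fold change of -0.35 (SE 0.30, edgeR P-adj = 0.567). Both the highest and the lowest mouse were at 29°C. Without 29°C replicate 1 the log2 fold change of *Cyp7b1* was -0.13, without 29°C replicate 5 it was -0.53, and with the split of totals as a covariate it was 0.0044. *Cyp46a1*, the cholesterol 24-hydroxylase best known in neurons, ranged from 0.406 through 0.886 to 1.21 CPM at 22°C and from 0.464 through 0.740 to 1.05 CPM at 29°C, with a log2 fold change of 0.12 (SE 0.29, edgeR P-adj = 0.861). The mice at 29°C fell inside the range of those at 22°C.

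*Cyp11a1*, the mitochondrial enzyme that cuts the side chain of cholesterol at the start of steroid synthesis, ranged from 0.158 through a median of 1.23 to 2.13 CPM at 22°C and from 0.652 through 1.32 to 1.78 CPM at 29°C. Its lowest value, in 22°C replicate 1, rests on 3 counts. With a log2 fold change of 0.02 (SE 0.39, edgeR P-adj = 0.988) it missed the threshold. Of its 50-base stretches 4.07% lie in *Gm17322*.

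*Cyp26b1*, which breaks down retinoic acid, ranged from 3.26 through a median of 5.08 to 7.78 CPM at 22°C and from 2.08 through 5.91 to 24.9 CPM at 29°C. Apart from 29°C replicate 6, which held the highest value, the groups overlapped. The log2 fold change was -0.63 (SE 0.47, edgeR P-adj = 0.501), and without that mouse it was 0.08.

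*Cyp20a1*, an orphan P450 with no settled substrate, had levels close together within each group. It ranged from 17.1 through a median of 18.9 to 20.7 CPM at 22°C and from 19.4 through 21.8 to 23.1 CPM at 29°C. In 6 of 7 mice at 22°C it was below every mouse at 29°C, the exception being replicate 6. Its log2 fold change was -0.19 (SE 0.06, edgeR P-adj = 0.167).

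The genes that serve P450 enzymes or share their substrates were examined as 6 lists that hold none of the members. *Ptgis* and *Tbxas1* of the arachidonate list are P450 enzymes whose symbols the rule does not take. Of their 93 tested genes edgeR called none changed, where it called 1.94% of all genes tested, so a count of 0 is near that share. Of the electron transfer and heme genes, 20 of 21 were tested, 11 were higher and 9 lower at 22°C, and the median log2 fold change was 0.01. *Por*, the oxidoreductase that feeds electrons to the enzymes of the endoplasmic reticulum, had 602 ± 99.1 CPM (SD, n = 7) at 22°C against 666 ± 71.7 CPM (SD, n = 6) at 29°C, with a log2 fold change of -0.15 (SE 0.12). *Cyb5a*, cytochrome b5, which donates electrons to some of them, had 313 ± 63.8 CPM (SD, n = 7) against 345 ± 31.7 CPM (SD, n = 6), with a log2 fold change of -0.14 (SE 0.12). One gene of this list had an unadjusted p below 0.05 in edgeR, where 18.5% of all genes tested did. DESeq2 called none, where it called 10.2% of all genes with an adjusted p.

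Of the xenobiotic and nuclear receptors, 18 of 22 were tested, 8 were higher and 10 lower, and the median was -0.03. *Pparg*, the master regulator of adipocytes, had 309 ± 48.3 CPM (SD, n = 7) against 356 ± 28.8 CPM (SD, n = 6), and *Rxra*, its partner, 295 ± 19.5 CPM (SD, n = 7) against 304 ± 28.5 CPM (SD, n = 6). Their log2 fold changes were -0.20 (SE 0.10) and -0.04 (SE 0.07). In this list 5 genes had an unadjusted p below 0.05, where 18.5% of all genes tested did. DESeq2 called 3, where it called 10.2% of all genes.

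Of the genes of arachidonate, epoxide and long-chain omega oxidation, 20 of 21 were tested, 11 were higher and 9 lower, and the median was 0.01. *Ephx2*, the soluble hydrolase of fatty acid epoxides, had 327 ± 112 CPM (SD, n = 7) against 252 ± 13.6 CPM (SD, n = 6), with a log2 fold change of 0.37 (SE 0.19). In this list 3 genes had an unadjusted p below 0.05, where 18.5% of all genes tested did. DESeq2 called 2, where it called 10.2% of all genes.

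Of the retinoid genes, 12 of 16 were tested, 7 were higher and 5 lower, and the median was 0.04. Their summed level was between 678 and 758 CPM at 22°C and between 789 and 973 CPM at 29°C, without overlap, although most single genes had higher fitted levels at 22°C. *Rbp4*, the retinol carrier that fat secretes, gave much of this sum, with 200 ± 46.2 CPM (SD, n = 7) at 22°C against 300 ± 74.7 CPM (SD, n = 6) at 29°C, and its log2 fold change was -0.58 (SE 0.19, edgeR P-adj = 0.151). *Aldh1a1*, which makes retinoic acid, had 180 ± 39.7 CPM (SD, n = 7) against 196 ± 20.3 CPM (SD, n = 6), with a log2 fold change of -0.13 (SE 0.14). In this list 4 genes had an unadjusted p below 0.05, where 18.5% of all genes tested did. DESeq2 called 3, where it called 10.2% of all genes.

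Of the oxysterol and bile acid genes, 10 of 14 were tested, 3 were higher and 7 lower, and the median was -0.09. *Scp2*, a sterol carrier and thiolase, had a log2 fold change of -0.13 (SE 0.12), and *Abca1*, the exporter of cholesterol, of -0.06 (SE 0.09). Of the steroid genes, 13 of 21 were tested, 8 were higher and 5 lower, and the median was 0.09. *Sult1a1*, a sulfotransferase of phenols and estrogens, had 142 ± 20.5 CPM (SD, n = 7) against 182 ± 29.8 CPM (SD, n = 6), with a log2 fold change of -0.36 (SE 0.12, edgeR P-adj = 0.166). *H6pd*, which supplies NADPH to 11-beta-hydroxysteroid dehydrogenase, had 441 ± 83.1 CPM (SD, n = 7) against 567 ± 93.9 CPM (SD, n = 6), with a log2 fold change of -0.36 (SE 0.15, edgeR P-adj = 0.212). In the oxysterol list 1 gene had an unadjusted p below 0.05 and DESeq2 called none, and in the steroid list these counts were 5 and 2. The shares over all genes were 18.5% and 10.2%.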

How the data were processed

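RNA of gluteal WAT from 13 mice was sequenced, and groups and replicate numbers were taken from the labels. The authors aligned reads with STAR 2.7.5a (build GRCm39 per the submitters' processing notes), counted them with featureCounts and deposited raw counts of 34419 genes; the annotation release and strand setting are not given in the sources used here, so overlapping and antisense genes are uncertain. The authors also deposited regularized log2 values from DESeq2. Symbols were matched by gene identifier without version for 34006 genes, and no coordinates are given. Exon lengths and coding sequences are from GENCODE M21, on GRCm38.

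Counts were tested with edgeR 4.0.16 in R 4.3.3 (TMM, filterByExpr, quasi-likelihood F test, Benjamini-Hochberg adjustment, no covariate, P-adj below 0.1). SE was computed as the absolute log2 fold change over the root of the F statistic. Alternatives were DESeq2 1.42.0, limma 3.58.1 on the log2 values, other filters and scaling, robust fitting, covariates, the replicate number as a block, P-adj below 0.05 and leaving out each mouse. Using the libraries with higher totals alone, or leaving out the 2 with the highest muscle score, was chosen after seeing the data. The muscle score is the mean log2 CPM of 15 muscle genes. The script was tested on simulated data.

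P450 genes were named with full values if their unadjusted p was below 0.05, if they were among the 10 with the highest mean CPM or if they led their family, and the others with at least their mean. Of each list the genes called and the 2 most abundant were named. Of these, 1 gene is not reported here. The members and lists were chosen with earlier results of these data known, among them the rise of *Cyp4f17*. Mice were taken as separate samples of a group; litters are not given. Over all 78 pairs, no 2 libraries agree within sampling noise (lowest chi-square per gene 17.1).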

Additional observations from a re-analysis of the deposited data

Results flagged for a closer look

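In each temperature group and for each of the 29 P450 genes, the gap between the highest or lowest mouse and the nearest other, as a share of the whole range of log2 CPM, was set against Dixon's 95% critical value. Of the 58 groups tested, 2 passed, and chance flags about 1 in 20 groups. For *Cyp4f39* at 22°C, replicate 7, with 16.7 CPM from 369 counts, stood above the others by 0.590 of the range. For *Cyp11a1* at 22°C, replicate 1, with 0.158 CPM from 3 counts, lay below the others by 0.615 of the range. Both mice are those with the highest summed level of skeletal muscle genes (84612 CPM in replicate 7 and 61477 CPM in replicate 1), and the part of muscle RNA in these values was not tested.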

How the results depend on the processing

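*Cyp4f17* kept its direction and passed P-adj below 0.1 in all 24 alternative fits, with log2 fold changes from 0.48 (limma on the log2 values) to 0.90 and, on leaving out each mouse, P-adj between 0.0143 and 0.0391 in edgeR. Besides it, DESeq2 called 4 more P450 genes (5 of the 26 with an adjusted p, against 10.2% of all genes), *Cyp4b1*, *Cyp2u1*, *Cyp20a1* and *Cyp4v3*, and leaving out each mouse gave between 1 and 3 calls. Over all genes 345 calls became 1676 with DESeq2, 42 with no filter, 44 with the muscle score as a covariate, 4 with the split of totals as a covariate, 8 in the libraries with higher totals, 40 at P-adj below 0.05 and 32 (without 29°C replicate 3) to 652 (without 22°C replicate 6) on leaving out each mouse. The replicate number as a block gave 214 calls, 1 of them a P450 gene; same-numbered mice deviated together with correlations from 0.05 to 0.51, and not every mouse correlated best with its own number. Of the gene lists, DESeq2 called 3 receptors, 2 arachidonate, 3 retinoid and 2 steroid genes, the block called 1 receptor, and leaving out each mouse called 0 to 1 receptor and 0 to 1 arachidonate gene. Of the other P450 genes 14 kept their sign in all fits and 14, none past the threshold, did not; the cause was not tested. With the block, log2 fold changes turned to -0.0083 (*Cyp27a1*), 0.031 (*Cyp2j6*), 0.072 (*Cyp1b1*) and -0.16 (*Cyp11a1*). With the muscle score they turned to -0.14 (*Cyp27a1*), 0.085 (*Cyp2j6*), 0.047 (*Cyp1b1*), 0.0036 (*Cyp2j9*), 0.013 (*Cyp26b1*), -0.0037 (*Cyp4f18*) and -0.019 (*Cyp39a1*), and without the 2 libraries of highest muscle score to 0.043 (*Cyp2j6*) and 0.0059 (*Cyp1b1*). With the split of totals they turned to -0.38 (*Cyp2d22*), -0.065 (*Cyp4f13*), -0.50 (*Cyp2s1*), 0.23 (*Cyp2ab1*), 0.0044 (*Cyp7b1*) and -0.60 (*Cyp4f14*), and in the libraries with higher totals to -0.38 (*Cyp2d22*), -0.075 (*Cyp4f13*), -0.51 (*Cyp2s1*), 0.22 (*Cyp2ab1*) and -0.62 (*Cyp4f14*). With limma they turned to -0.022 (*Cyp11a1*) and -0.0053 (*Cyp4f14*). On leaving out each mouse the ranges that crossed 0 were -0.0013 to 0.21 (*Cyp27a1*), -0.058 to 0.029 (*Cyp2j6*), -0.024 to 0.057 (*Cyp4f13*), -0.29 to 0.035 (*Cyp1b1*), -0.83 to 0.081 (*Cyp26b1*), -0.41 to 1.91 (*Cyp2s1*), -0.27 to 0.025 (*Cyp2ab1*), -0.15 to 0.21 (*Cyp11a1*) and -0.30 to 0.17 (*Cyp4f14*). CPM without TMM factors moved no group mean by more than its SD. Genes under about 1 CPM rest on few counts, which limits what can be told of them.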
